A study of Mus musculus with 6 samples.

Results

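Chemokines are small secreted proteins that direct the migration of leukocytes, and interleukins are secreted proteins that signal between immune cells and the tissues around them. Their genes, together with those of the interleukin receptors, were followed in Tmem161a-KO and WT MC3T3-e1 cells. The members were all rows of the arrays whose gene symbol begins with Ccl, Cxcl or Il followed by a digit. Of 113 such rows, 1 was left out by name and 5 because they belong to chromosomes 14 or 17. This left 107 rows with 106 gene symbols, out of 19571 rows that carry a symbol. MC3T3-e1 cells are osteoblastic cells that were derived from the calvaria of a mouse. The Tmem161a-KO cells were a single line, obtained from them by CRISPR/Cas9 editing that left small deletions and by limited dilution, and the WT cells carried the wild-type gene. RNA from 3 samples of each was measured on Clariom S mouse arrays. No source used here tells whether replicates were grown as separate cultures, so a p-value covers the spread between these samples alone, and that spread may be technical. An effect of Tmem161a and a property of the edited line cannot be told apart.

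In bone, osteoblasts and stromal cells are themselves a source of several of these proteins. CXCL12 retains blood-forming stem cells in the marrow through its receptor CXCR4, CCL2 and CCL7 attract monocytes, which include precursors of osteoclasts, and IL-7 maintains early lymphocytes. Cells of the osteoblast lineage also carry receptors for IL-6, IL-1 and IL-17. Interleukin receptors are mostly built from a chain that binds the ligand and a chain that is shared between several ligands, and most of them signal through JAK and STAT proteins or, for the IL-1 and IL-17 receptors, through NF-kB.

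The values are normalized, linear intensities, compared on the log2 scale with limma, with Benjamini-Hochberg adjustment over all 19571 rows and a threshold of 0.05 on the adjusted p. The arrays carry no detection call. The 1091 rows of olfactory receptors, whose products sense odours in the nose, were taken as background. Their 95th percentile was an intensity of 100.1 (log2 6.65) and their 99th percentile an intensity of 147, whereas the median gene row lay at 236 (log2 7.88). A member was counted as above background when its mean log2 intensity over all 6 arrays exceeded the 95th percentile, a measure that does not favour members that differ between the groups. By this measure 46 of the 107 rows were above background and 36 of them also lay above the 99th percentile. Of all 19571 gene rows, 12656 were above background and 11188 also lay above the 99th percentile, so the members were dimmer as a set. Of the 46 member rows, 40 were above background on every array. The edited gene itself, Tmem161a, had intensities of 936, 1001 and 963 in Tmem161a-KO cells, against 1155, 1061 and 1229 in WT cells (adjusted p = 0.192), and since small deletions need not lower a transcript this checks neither the edit nor the labels. Of the osteoblast markers, Col1a1, Col1a2 and Sparc were far above background, with group means between 158953 and 407281, and Sp7 stood at 849 in Tmem161a-KO cells and 174 in WT cells (adjusted p = 3.68e-08), whereas Alpl was not above background, at 84.3 in Tmem161a-KO cells and 92.2 in WT cells. The summed intensity of 7 leukocyte markers was 509 to 594 on the Tmem161a-KO arrays and 552 to 629 on the WT arrays, and 6 of the 7 were not above background, among them Ptprc, Csf1r and Adgre1. The 3 endothelial markers were not above background either.

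Of the 107 rows, 61 were not above background, among them those of the inflammatory ligands Il1b, Il6, Cxcl2 and Cxcl9. Among the ligands, 29 of 72 rows were above it, and among receptors and binding proteins 17 of 35. The brightest row was that of Cxcl12, followed by those of the receptor genes Il6st, Il17rc, Il4ra, Il13ra1, Il1r1 and Il10rb and then by Il17b, Ccl7 and Ccl2. In all, 24 members lay above the median gene row. Brightness depends on the probes of a row as well as on its RNA, so this order is not an order of RNA amounts.

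**Figure D1:**
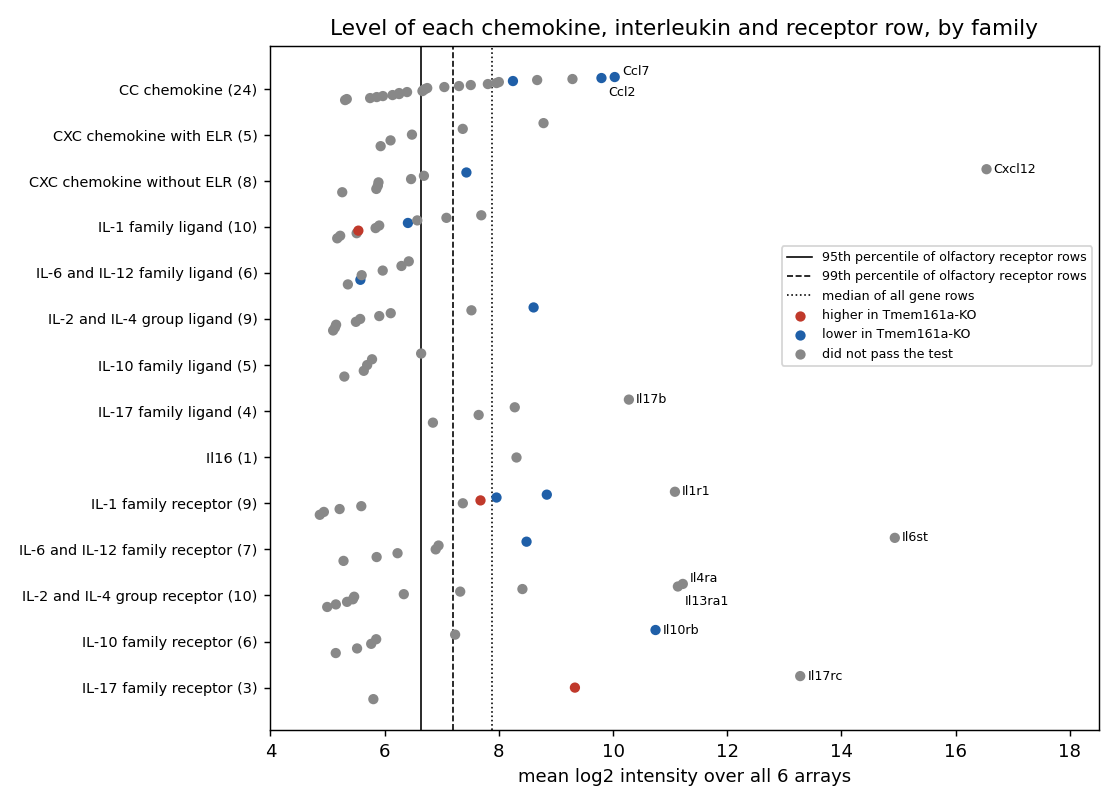
Mean log2 intensity over all 6 arrays of each of the 107 rows (points), by family with the number of rows in brackets, with vertical lines at the 95th and 99th percentiles of the olfactory receptor rows and at the median gene row. Blue points were lower and red points higher in Tmem161a-KO cells, and Cxcl12 stands alone at the bright end.

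The test was passed by 14 of the 107 rows, 11 lower and 3 higher in Tmem161a-KO cells. Over all 19571 rows 9.91% passed, 4.17% lower and 5.73% higher. Higher genes made up 57.9% of those calls as deposited and 72.5% with each array centred on its median. The median intensity over all rows was 203.6 to 207.9 on the Tmem161a-KO arrays and 213.8 to 215.3 on the WT arrays. With this centring, 10 members were lower and 3 higher. Among the 46 members above background, 9 were lower (Ccl2, Ccl7, Ccl9, Cxcl16, Il7, Il6ra, Il1rap, Il10rb and Il18rap) and 2 higher (Il17ra and Il1rl2), against 5.68% lower and 8.57% higher over the 12656 rows above background. These 46 rows had a median log2 fold change of -0.18, against 0.02 over the 12656 rows. In 19 of the 46 rows every Tmem161a-KO array lay below every WT array, which held for 16% of all rows above background, and in 3 rows every Tmem161a-KO array lay above, which held for 20.2% of all rows above background. The brightness of a row moved with the direction: gene rows between background and the median row had a median of -0.11 and those above the median row one of 0.06 (log2). The 24 members above the median row had a median of -0.26, with 8 lower and 1 higher, against 5.7% lower and 9.94% higher over all gene rows above the median row. The part of brightness in the members' median was not tested.

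Of the members that passed, 7 had a promoter window, and 4 of these held at least 1 of the motifs searched. The 250 bases before the start of transcription are shown for Ccl9 and Il1rn, which were lower, and for Il1rl2, which was higher, to show where these motifs lie. The window of Il6, which was above background on no array, is not shown. The windows come from RefSeq on GRCm38.p6, which held windows for 79 of the 106 symbols. The motifs, searched on both strands, were the NF-kB consensus, AP-1 (TGA and TCA with any base between them), C/EBP (TTGCNNAA) and the STAT motif (TTCNNNGAA), and capitals mark the matches.
Ccl9 (chr11:83578637-83578886, minus strand): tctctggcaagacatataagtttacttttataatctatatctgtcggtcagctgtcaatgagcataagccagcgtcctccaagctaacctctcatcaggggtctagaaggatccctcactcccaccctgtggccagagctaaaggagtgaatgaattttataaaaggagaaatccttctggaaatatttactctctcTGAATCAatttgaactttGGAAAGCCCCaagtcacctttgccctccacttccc
Il1rn (chr2:24336610-24336859, plus strand): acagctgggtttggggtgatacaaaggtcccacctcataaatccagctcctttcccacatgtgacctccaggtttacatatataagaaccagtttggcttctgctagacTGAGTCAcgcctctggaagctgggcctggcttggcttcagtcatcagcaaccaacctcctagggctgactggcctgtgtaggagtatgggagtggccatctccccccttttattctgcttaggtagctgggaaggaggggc
Il1rl2 (chr1:40324339-40324588, plus strand): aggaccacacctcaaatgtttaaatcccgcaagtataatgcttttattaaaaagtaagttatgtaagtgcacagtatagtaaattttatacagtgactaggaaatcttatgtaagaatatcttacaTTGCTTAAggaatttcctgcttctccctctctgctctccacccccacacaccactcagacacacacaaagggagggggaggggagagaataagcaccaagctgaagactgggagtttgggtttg
The Ccl9 window held an AP-1 match that began 53 bases before the start and an NF-kB match 35 bases before it. The Il1rn window, the first of 3 for this gene, held an AP-1 match 141 bases before the start, and its other windows held no match. The Il1rl2 window held a C/EBP match 124 bases before the start. None of the matches overlapped another. Of 32851 windows of this length, 3.9% held the NF-kB motif, 6.75% AP-1, 9.56% C/EBP and 7.02% the STAT motif. Of the 95 windows of the members, called or not, 11.6% held NF-kB, 16.8% AP-1, 16.8% C/EBP and 10.5% the STAT motif. These shares are per window and per motif, so the count of 4 of 7 genes with any motif has no matching share. A match is a description of the letters, and binding was not measured. The windows of Il6ra, Il1rap and Il18rap held none of these letters.

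The chemokines with the lowest fold changes were Ccl2 and Ccl7, the monocyte chemoattractant proteins MCP-1 and MCP-3, which lie side by side on chromosome 11. Ccl2 had intensities of 353, 654 and 444 in Tmem161a-KO cells, against 1232, 1860 and 2111 in WT cells. All 3 Tmem161a-KO samples lay far below the lowest WT sample, although the samples varied within each group. On the log2 scale it fell by 1.85 (standard error 0.21, adjusted p = 3.26e-05), which is 3.61-fold lower. Ccl7 had 666, 638 and 628 in Tmem161a-KO cells, against 1654, 1815 and 1624 in WT cells. Its groups were much tighter than those of Ccl2 and did not overlap either. Ccl7 fell by 1.40 on that scale, with a standard error of 0.11 (adjusted p = 8.22e-07), or 2.63-fold. The other genes of the same cluster, Ccl11, Ccl12, Ccl8 and Ccl1, are also ligands of leukocytes. Ccl1 was barely above background, at 99.2 ± 8.62 in Tmem161a-KO cells and 118 ± 19.5 in WT cells (SD, n = 3 each, adjusted p = 0.310), and Ccl11, Ccl12 and Ccl8 were not above it, so a change of theirs could not be measured.

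Ccl9, a mouse chemokine that acts through CCR1, lies in another group of CC chemokine genes on chromosome 11. It had 291, 180 and 221 in Tmem161a-KO cells, against 355, 329.7 and 580 in WT cells. The groups did not overlap, but WT replicate 3 stood well above the other WT samples, and the gap between the nearest samples was small. Ccl9 fell by 0.85 (log2, standard error 0.20, adjusted p = 0.0124). It no longer passed with Tmem161a-KO replicate 2 left out (-0.69, adjusted p = 0.0586) or with Tmem161a-KO replicate 3 left out (-0.83, adjusted p = 0.0543). Its neighbour Ccl6 did not pass, with a log2 fold change of 0.09 (95% interval -0.20 to 0.38).

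Of the 24 rows of CC chemokines, 15 were above background and 3 passed the test, all lower. This was 12.5% of the 24 rows. Over all gene rows 9.91% passed in either direction and 4.17% were lower. Besides Ccl2, Ccl7 and Ccl9, the brightest was Ccl25, a chemokine for thymocytes and gut lymphocytes, with 634 ± 41.0 in Tmem161a-KO cells and 618 ± 7.77 in WT cells (SD, n = 3 each, log2 fold change 0.04). Ccl27a and Ccl28, which both act through CCR10, had log2 fold changes of -0.26 each, with adjusted p-values of 0.181 and 0.176. Their groups did not overlap, but neither passed. Ccl20, the ligand of CCR6, stood at -0.05, Ccl24, a chemokine for eosinophils, at -0.13, Ccl17 and Ccl22, both ligands of CCR4, at -0.13 and -0.28, and Ccl5 at -0.14, none past the test. Ccl21a, Ccl21b and Ccl21c are near-identical copies. The single row of Ccl21a had 242 in Tmem161a-KO cells and 256 in WT cells, the brighter of 2 rows of Ccl21b had 102 in Tmem161a-KO cells and 101 in WT cells, and the other Ccl21b row and the Ccl21c row held the same values as each other, so these rows cannot be assigned to a copy with confidence. Ccl3, Ccl4, Ccl19 and Ccl26 were not above background.

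Cxcl12, or SDF-1, was the member with the brightest row. It had 109568, 107650 and 98573 in Tmem161a-KO cells, against 86433, 80638 and 92156 in WT cells. Every Tmem161a-KO sample was above every WT sample, by a small margin between the nearest. This was a log2 difference of 0.29 (95% interval 0.04 to 0.53), or 1.22-fold, and it did not pass over all rows (adjusted p = 0.131). With an intensity trend and robust estimation it passed, at the same difference and an adjusted p of 0.0289. Its receptors were measured too, outside the members. Cxcr4 had 170.4, 198 and 177 in Tmem161a-KO cells, against 123, 135 and 125 in WT cells, without overlap. This was a log2 fold change of 0.51 (adjusted p = 0.00925) at an intensity below the median row. Ackr3, which binds and clears CXCL12, had intensities of 2493, 2785 and 2392 in Tmem161a-KO cells, against 2822, 2955 and 3284 in WT cells. These groups did not overlap either, but the difference of -0.24 (log2) did not pass (adjusted p = 0.221).

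Cxcl16, a chemokine held in the membrane and released from it, which acts through CXCR6, had 136, 149 and 158 in Tmem161a-KO cells, against 195, 214 and 201 in WT cells. The groups were separate but dim, and 1 Tmem161a-KO sample lay under the 99th percentile of background. Cxcl16 fell by 0.47 (log2, standard error 0.11, adjusted p = 0.0162). It did not pass without WT replicate 2 (adjusted p = 0.0700) or without Tmem161a-KO replicate 1 (adjusted p = 0.0730). Of the chemokines that attract neutrophils through an ELR motif, Cxcl3 (-0.08, adjusted p = 0.708) and Cxcl1 (-0.08, adjusted p = 0.759) were above background and overlapped between groups. Cxcl2, Cxcl5 and Cxcl15 were not above background. The interferon-induced Cxcl10 lay at the edge of background, with 96.3 ± 14.7 in Tmem161a-KO cells and 112 ± 8.52 in WT cells (SD, n = 3 each, adjusted p = 0.320), and Cxcl9 and Cxcl11 lay below it, as did Cxcl13, Cxcl14 and Cxcl17.

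Of 21 chemokine receptor genes outside the members, 6 were above background. Cxcr4 alone passed (4.76%, against 9.91% over all gene rows), and 0 were lower with limma (3 at an unadjusted p under 0.05). The median over the 21 genes was -0.03 (log2). Most of them were not above background, so a change of theirs could not be measured. Ccr2, the main receptor of CCL2, had 28.4, 31.2 and 31.5 in Tmem161a-KO cells and 31.5, 29.5 and 27.2 in WT cells, which is below the median olfactory receptor row. Ccr1 was also below that row. Cxcr6 had 167, 154 and 223 in Tmem161a-KO cells, against 103, 158 and 211 in WT cells, and the groups overlapped.

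**Figure D2:**
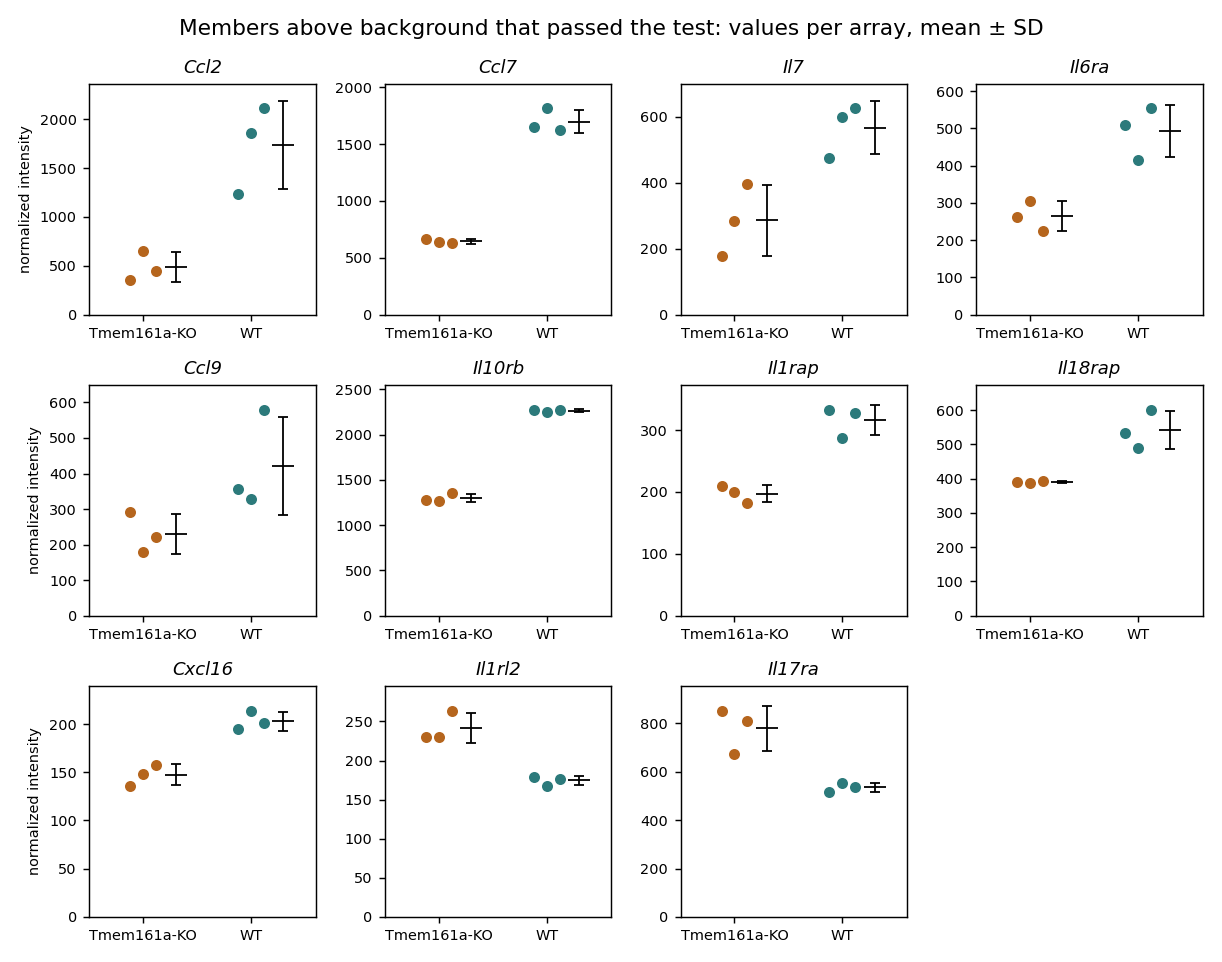
Normalized intensity on each array of the 11 members above background that passed the test, with Tmem161a-KO samples at the left and WT samples at the right of each panel (points) and the mean ± SD beside them (n = 3 each), on axes that start at 0. In every panel the groups are separate, 9 of them with the Tmem161a-KO samples lower, and the gap is wide for Ccl7 and Il10rb and narrow for Ccl9.

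Il7, a growth factor of lymphocytes made by stromal cells, was the only interleukin ligand above background that passed. It had 179, 283 and 395 in Tmem161a-KO cells, against 475, 598 and 625 in WT cells. The Tmem161a-KO samples were spread widely, and the highest of them came near the lowest WT sample without reaching it. Il7 fell by 1.05 (log2, standard error 0.21, adjusted p = 0.00437). The change ranged from -1.32 without Tmem161a-KO replicate 3 up to -0.75 without Tmem161a-KO replicate 1 and kept its call in both. Il7r, the chain that binds IL-7, was not above background.

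Il17b, a ligand of the IL-17 family, was bright, with 1207, 1058 and 978 in Tmem161a-KO cells, against 1642, 1392 and 1281 in WT cells. Every Tmem161a-KO sample was below every WT sample, yet the log2 fold change of -0.41 (standard error 0.13, 95% interval -0.68 to -0.14) missed the threshold at an adjusted p of 0.0572. With quantile normalization it passed (-0.49, adjusted p = 0.0280), likewise with WT replicate 3 left out (-0.49, adjusted p = 0.0470), and, just inside the threshold, with Tmem161a-KO replicate 1 left out (-0.49). Counting these, Il17b passed in 7 of 16 alternative settings. Of the other IL-17 ligands, Il17a (-0.17), Il17c (-0.12) and Il17f (-0.18) did not pass. Il17a had 297 ± 62.9 in Tmem161a-KO cells and 330.2 ± 14.6 in WT cells (SD, n = 3 each).

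Il17ra, the receptor chain shared by most IL-17 ligands, was one of the few members that were higher. It had 853, 675 and 811 in Tmem161a-KO cells, against 517, 553 and 538 in WT cells. All Tmem161a-KO samples lay above the tight WT group, 0.53 higher on the log2 scale (standard error 0.12, adjusted p = 0.00946). Its partner chain Il17rc did not pass, at 10688, 9886 and 9930 in Tmem161a-KO cells and 10324, 9421 and 9386 in WT cells. The interval of its log2 fold change of 0.07 ran from -0.17 to 0.30. Il17re was not above background.

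In the IL-6 pathway the ligand-binding receptor chain was lower. Il6ra had 262, 306 and 226 in Tmem161a-KO cells, against 511, 415 and 554 in WT cells. The highest Tmem161a-KO sample lay well under the lowest WT sample, and Il6ra fell by 0.90 (log2, standard error 0.14, adjusted p = 5.43e-04), or 1.87-fold. Il6st, which encodes gp130, the signalling chain shared by the whole IL-6 family, did not pass, at 27660, 29537 and 29964 in Tmem161a-KO cells and 34821, 36514 and 30156 in WT cells. Its groups came close without overlapping, with a difference of -0.22 (log2, 95% interval -0.46 to 0.03, adjusted p = 0.276). Il6 itself was not above background on any array, with 28.4, 45.9 and 43.3 in Tmem161a-KO cells and 49.0, 57.7 and 73.9 in WT cells. Its log2 fold change of -0.63 passed (adjusted p = 0.0365), but at this brightness a row does not show that a transcript was present. The call was lost without WT replicate 2, WT replicate 3, Tmem161a-KO replicate 1 or Tmem161a-KO replicate 3 (adjusted p = 0.0552 to 0.158). It was also lost with quantile normalization (adjusted p = 0.0600) and with median centring (adjusted p = 0.0542), and the methods' test missed the threshold without adjustment. Il11 and Il27 were not above background, and Il12rb1 (-0.24) and Il12rb2 (0.20) were close to it and did not pass.

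Of 7 further genes of the IL-6 family and its receptors, outside the members and with a median log2 fold change of -0.12, Ctf1, the ligand cardiotrophin-1, was lower, with 631, 573 and 659 in Tmem161a-KO cells against 864, 936 and 857 in WT cells (-0.51, adjusted p = 0.00842), and 0 were higher with limma (0 at an unadjusted p under 0.05). Among 19 JAK, STAT and SOCS genes, Socs3, an inhibitor of gp130 signalling that is induced by it, was lower, with 1423, 1296 and 1140 in Tmem161a-KO cells against 2294, 2067 and 1810 in WT cells. These groups were separate, at a log2 fold change of -0.68 (adjusted p = 0.00268). The other 18 did not pass. Thus 5.26% of this list and 14.3% of the IL-6 family list passed, against 9.91% of all gene rows. The median over the JAK, STAT and SOCS list was 0.06, against -0.01 over all gene rows.

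In the IL-1 family, the receptor chains moved in both directions. Il1rap, the accessory chain that the receptors for IL-1, IL-33 and IL-36 share, had 209, 199 and 182 in Tmem161a-KO cells, against 333, 288 and 327 in WT cells. All Tmem161a-KO samples were lower, and Il1rap fell by 0.68 (log2, standard error 0.12, adjusted p = 0.00116). Il1r1, the chain that binds IL-1, did not pass and its groups overlapped, with 1873, 2341 and 2851 in Tmem161a-KO cells and 2081, 1889 and 2127 in WT cells. The interval of its log2 fold change of 0.19 ran from -0.11 to 0.50. Il1rl2, the IL-36 receptor chain, lies next to Il1r1 on chromosome 1 and was higher, with 230.3, 230.1 and 264 in Tmem161a-KO cells against 179, 168 and 177 in WT cells. The difference of 0.47 (log2, standard error 0.11) passed at an adjusted p of 0.0156, and the call was lost without WT replicate 2 (adjusted p = 0.0646) or Tmem161a-KO replicate 3 (adjusted p = 0.0657).

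Il18rap, the accessory chain of the IL-18 receptor, belongs to the same cluster on chromosome 1 and was lower, with 390, 386 and 393 in Tmem161a-KO cells against 532, 491 and 602 in WT cells. The Tmem161a-KO samples were almost equal and lay below all WT samples, and Il18rap fell by 0.47 (log2, standard error 0.12, adjusted p = 0.0167). It did not pass without WT replicate 1 (adjusted p = 0.0501) or WT replicate 3 (adjusted p = 0.0746). Il18r1, the chain that binds IL-18, was not above background, whereas Il18 (-0.14) and its soluble inhibitor Il18bp (-0.22) were above background and did not pass.

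Il1rn, the secreted antagonist of the IL-1 receptor, had 46.2, 50.6 and 40.0 in Tmem161a-KO cells, against 193, 156 and 134 in WT cells. All WT samples lay above the 95th percentile of the olfactory receptor rows and all Tmem161a-KO samples under it, so the mean over all arrays fell short of background. Il1rn fell by 1.81 (log2, standard error 0.14, adjusted p = 8.07e-07). Since the Tmem161a-KO values lie in the background, the size of this difference is uncertain. Il1f6, which encodes IL-36 alpha, also passed, at 0.50 (adjusted p = 0.0225), but none of its values, 50.3, 66.3 and 51.1 in Tmem161a-KO cells and 38.0, 36.7 and 42.8 in WT cells, reached background. The call was lost without WT replicate 1, WT replicate 2 or Tmem161a-KO replicate 2 (adjusted p = 0.0779 to 0.0913). Il1a and Il1b, the IL-1 ligands, were not above background, and Il33 was close to it (-0.18, adjusted p = 0.407). Of 23 further genes of the IL-1 receptor and NF-kB signal chain, 22 did not pass, and Irak3, an inhibitor of signalling by these receptors, was lower. It had 802, 905 and 963 in Tmem161a-KO cells, against 1750, 1759 and 1431 in WT cells, a log2 fold change of -0.89 (adjusted p = 2.29e-04). Tnfaip3, named after its values had been seen, went the other way and had the highest log2 fold change of the list, 0.54. Its groups did not overlap, but it just missed the threshold (adjusted p = 0.0543). Of the 23 genes, 4.35% passed, against 9.91% of all gene rows, and 12 had a log2 fold change below 0 and 11 above it. The median over this list was -0.00025 (log2).

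Il10rb, the shared chain of the receptors for IL-10, IL-22 and the type III interferons, had 1282, 1266 and 1352 in Tmem161a-KO cells, against 2269, 2244 and 2276 in WT cells. Both groups were narrow and far apart. Il10rb fell by 0.80 (log2, standard error 0.11, adjusted p = 1.56e-04), or 1.74-fold, and the gene lies on chromosome 16 between Ifnar2 and Ifnar1. Il10ra, the chain that binds IL-10, and Il10 were not above background, and of the related receptor genes Il20rb (0.21, adjusted p = 0.382) alone was above it. The receptor genes of IL-4 and IL-13 did not pass. Il4ra had 2742, 2577 and 2125 in Tmem161a-KO cells and 2059, 2498 and 2403 in WT cells, with an interval of -0.18 to 0.37 for its log2 fold change. Il13ra1 had 2277, 2080 and 2262 in Tmem161a-KO cells and 2780, 2296 and 1895 in WT cells, with an interval of -0.35 to 0.23. The groups overlapped in both genes. Il15ra, the chain that presents IL-15, was separate between groups but did not pass (-0.41, adjusted p = 0.0742), and the same held for Il16, a chemoattractant of CD4+ cells (-0.34, adjusted p = 0.0797), and Il9r (-0.34, adjusted p = 0.0902). Il13 was dim and did not pass (-0.15), and Il2, Il3, Il4, Il5, Il9, Il15 and Il21 were not above background.

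**Figure D3:**
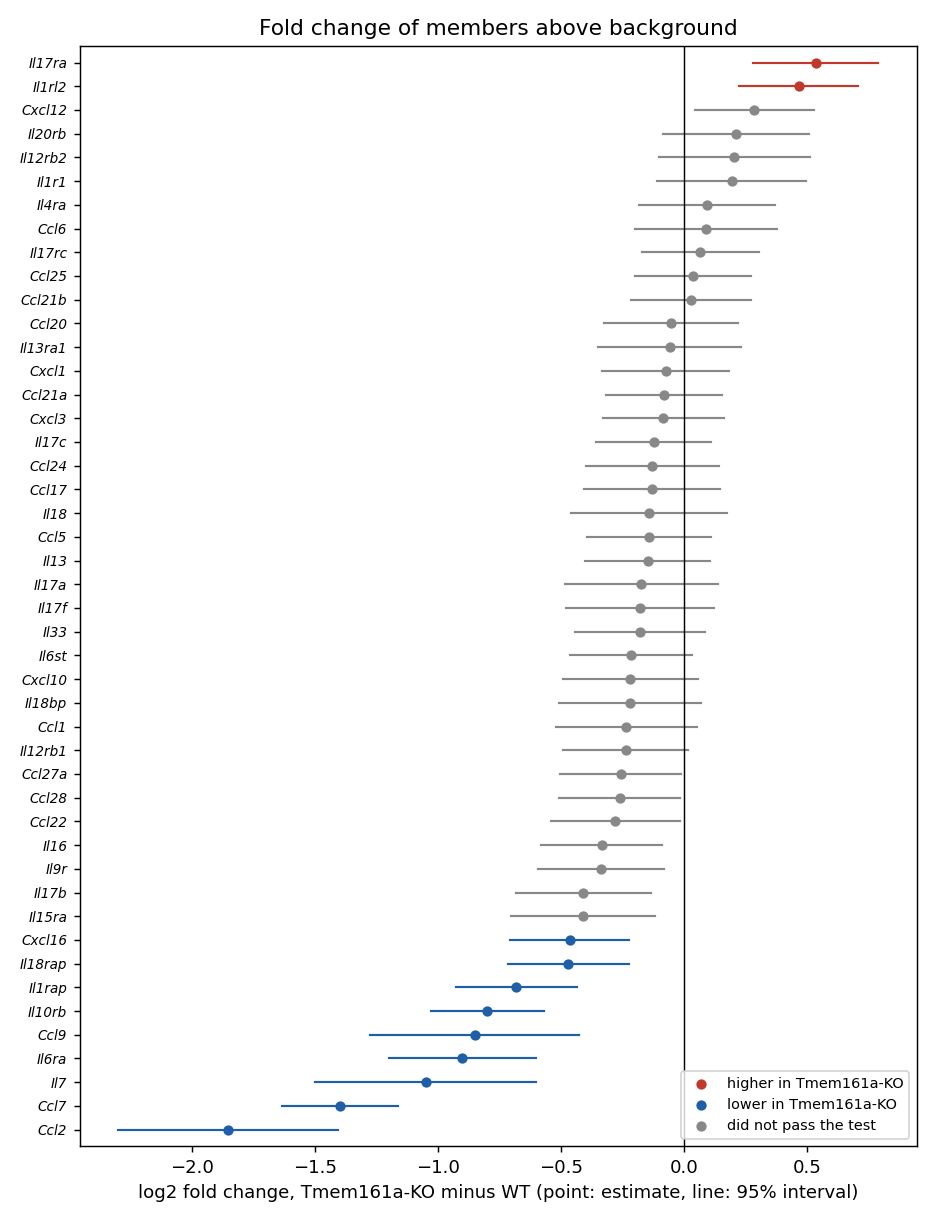
Log2 fold change, Tmem161a-KO minus WT, of the 46 rows above background (points) with its 95% interval (lines), ordered from high to low, Ccl21b being the brighter of its rows. The estimates run from 0.53 for Il17ra to -1.85 for Ccl2, and the 35 rows that did not pass (grey) lie between -0.41 and 0.29.

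The 61 rows not above background comprised 9 of CC chemokines, 8 of CXC chemokines, 26 of interleukins and 18 of receptors. On 56 of them no array exceeded the 95th percentile, and besides Il1rn only Il22, named after its values had been seen, exceeded it on all WT arrays and no Tmem161a-KO array, by a small margin (adjusted p = 0.232). Apart from Il1rn, Il6 and Il1f6, the log2 fold changes of these rows lay between -0.36 and 0.23 and none passed. Of the 61 rows 4.92% passed, against 1.97% of all gene rows not above background. For all of the 61 rows but that of Il1rn, the arrays could not show at this brightness whether the genes differed.

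**Figure D4:**
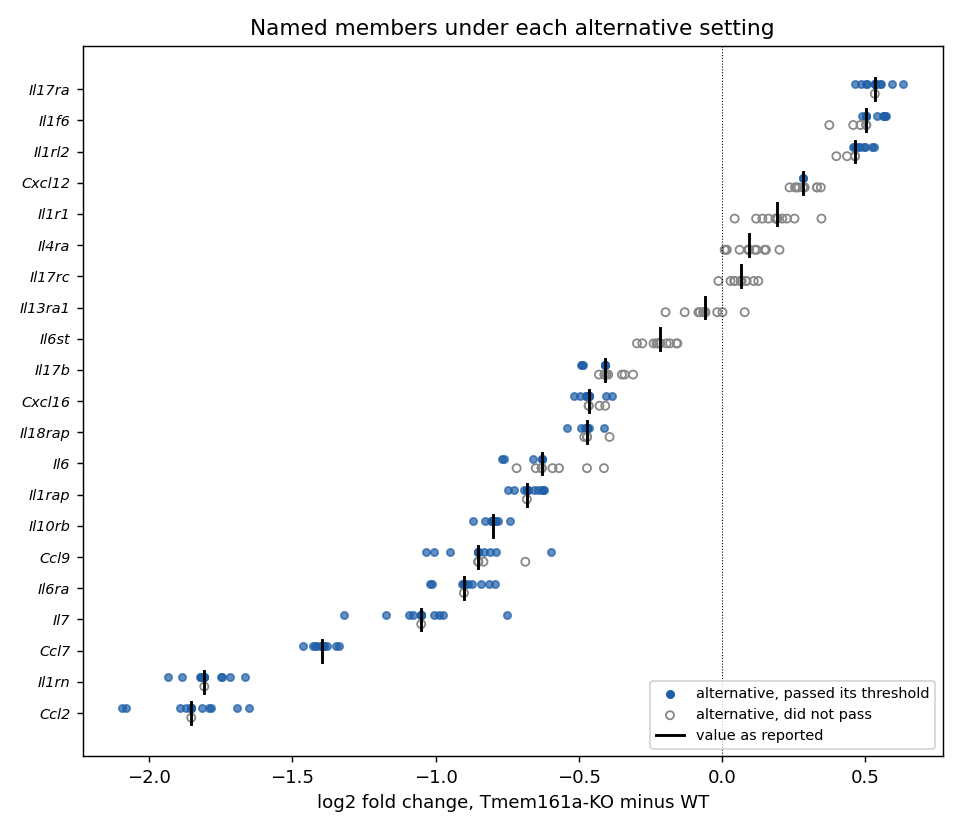
Log2 fold change, Tmem161a-KO minus WT, of each of the 21 members named with values in every sample, as reported (black bars) and under up to 16 alternative settings, filled where the alternative passed its threshold and open where it did not. Ccl7 and Il10rb passed in all 16, and Il6st, Il13ra1, Il17rc, Il4ra and Il1r1 in none.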

How the data were processed

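Clariom S mouse arrays measured 3 Tmem161a-KO and 3 WT samples. The authors used GeneSpring for normalization and deposited linear, normalized intensities, 1 column per array. How background was corrected, how probes were summarized and which genome build the arrays use is not stated in the sources used here. Log2 intensities were computed without pseudocount or further normalization and tested in R 4.3.3 by limma 3.58.1 (lmFit, eBayes, both groups, no covariate, Benjamini-Hochberg adjustment). Of 22205 rows, the 19571 with a gene symbol were tested and 2634 without were left out. RefSeq (GRCm38.p6) gave neighbouring genes and promoter windows. The number of arrays limits the precision, and the smallest two-sided p that an exact permutation of 3 and 3 samples allows is 0.1. Log2 intensities of arrays correlated at r = 0.9961 to 0.9967 within groups and 0.9906 to 0.9927 between groups.

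Values in every sample are given for Ccl2, Ccl7, Cxcl12, members that passed, and members above background that changed by at least 0.5 (log2) or were among the 10 brightest. The members, the lists and these rules were chosen with earlier results of these data known. The script was tested on simulated data. The alternatives were quantile normalization, median centring, array weights, an intensity trend with robust estimation, the methods' t-test, a filter on dim rows, all rows, a threshold of 0.01, the replicate number as a block, and each array left out.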

Additional observations from a re-analysis of the deposited data

How the results depend on the processing

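The counts of 11 lower and 3 higher members became 20 and 4 with the methods' t-test unadjusted, 2 and 0 with that test after Benjamini-Hochberg adjustment, where Ccl7 and Il10rb remained, and 7 and 1 at a threshold of 0.01. Over all gene rows, 817 lower and 1122 higher became 1878 and 2038, 76 and 114, and 382 and 581 under the same settings. With 1 array left out, 9 to 10 members were lower and 1 to 3 higher, and 497 to 703 gene rows were lower and 729 to 965 higher. Only 1 member was higher without WT replicate 2, and without WT replicate 1 or 2 the counts over all rows were 515 and 497 lower and 740 and 729 higher. With each array centred on its median, 614 gene rows were lower and 1619 higher. Of the members, 24 rather than 46 lay above the median gene row. With the sign of the fold change turned, Il17rc had -0.0118 with quantile normalization, and Il13ra1 had 0.0024 with median centring and 0.0799 without WT replicate 1 (-0.197 to 0.0799 with 1 array left out). The replicate number as a block gave 13 lower and 3 higher members, with all 14 calls kept and Il17b and Il15ra added (853 and 1198 over all rows). Deviations from the group means correlated at 0.02 to 0.09 between arrays of the same number, and 5 of 6 arrays correlated best with their own number, which is a hint from the data and not the design.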
